A study of Drosophila melanogaster with 2 samples.

Results

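The genes described are 48 components of the Toll and Imd pathways of Drosophila melanogaster. They are a fixed list of fly gene symbols, matched to the gene identifiers of the deposited tables, and all 48 of 48 listed genes were found among the 17612 genes counted. By role they comprise 10 recognition proteins, 5 Toll receptors, 6 genes for the ligand and its upstream proteases, 15 adaptors, kinases and ubiquitin enzymes, 9 intracellular regulators and 3 NF-kB factors.

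The study asked how blood cells of the larva (hemocytes) respond to a tumor of the salivary glands (SGs), and measured polyadenylated RNA of single hemocytes by Smart-seq2, a full-length method without molecular identifiers. The tumor was driven by Beadex MS1096-Gal4, a driver active in the SG, through UAS-RasV12 alone (Ras) or together with the caspase inhibitor p35 (p35;Ras, also called co-expressing), against w1118 larvae, whose set is titled with the driver. Cells were chosen by the plasmatocyte reporter EaterDsRed, neither transgene was aimed at the hemocytes, and the age of the larvae used for sequencing is not given in the sources used here. Tumor-associated hemocytes (TAHs, called attached) were drawn by capillary from the gland surface in p35;Ras (19 cells kept of 21) and Ras larvae (40 of 40), while circulating hemocytes were sorted in p35;Ras (124 of 126), Ras (126 of 127) and w1118 larvae (125 of 127). The genotype of each cell came from the deposited annotation, because the labels of the 2 deposited sets name 1 genotype each whereas the sets hold several. Each genotype and location was 1 pool of larvae with no replicate, so no difference below carries a test and cells of a pool are not replicates of its genotype.

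Both pathways end in NF-kB transcription factors that switch on antimicrobial peptide genes. In the Toll pathway, secreted recognition proteins start a cascade of serine proteases that cleaves the cytokine Spatzle (spz), which binds Toll (Tl), and the adaptors Myd88 and Tube with the kinase Pelle then cause loss of the inhibitor Cactus and release of Dorsal (dl) and Dif. In the Imd pathway, the receptors PGRP-LC and PGRP-LE bind bacterial peptidoglycan, and Imd, Fadd, the caspase Dredd, the Tak1 complex and the IKK complex lead to cleavage of Relish (Rel). Hemocytes and the fat body, the fly's main immune organ, are both sites of this signalling.

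Levels are given as counts per 1000000 reads (CPM) of the summed reads of a group, and comparisons between genes as CPM per kilobase of exon. Genes were compared if the group with the larger level had 10 CPM or more and 25% or more of that group's cells held a read. A gene is called higher or lower where the 2 levels differed by 2-fold or more. Bracketed intervals are exact 95% intervals that cover counting error only. They are too narrow, since amplified reads are not independent molecules.

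The median cell had 11295065 and 11146487 reads in attached co-expressing and Ras cells, against 626613, 582056 and 637375 in circulating co-expressing, Ras and w1118 cells. Plasmatocyte markers were read in every group (8 of 8 at 10 CPM or more), at 11057 and 10688 CPM in attached co-expressing and Ras cells and 16856 to 31683 CPM in the circulating groups. Attached cells also carried transcripts of other tissues. The 8 fat body markers summed to 47019 and 24078 CPM in attached co-expressing and Ras cells, against 48.5 to 73.8 CPM in the circulating groups, and the 10 salivary gland markers to 21113 and 32112 CPM, against at most 0.492 CPM, with 5 to 9 of the 10 at 0 reads in each circulating group. The 5 crystal cell markers summed to 15918 CPM in attached co-expressing cells, above the plasmatocyte markers there, and 511 CPM in attached Ras cells. The median attached co-expressing cell had 620 CPM of crystal cell markers and 8274 CPM of plasmatocyte markers. Of the 19 attached co-expressing cells 6 were rich in crystal cell or lamellocyte markers, against 3 of the 40 attached Ras cells. These are markers of other cell types than the plasmatocytes selected for, and whether these cells were plasmatocytes was not tested. The attached set also held 17 wells labelled _C whose meaning the labels do not give. These wells had a median of 7313193 reads, and 39 of the 48 genes had a read in at least 9 of them.

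The 48 genes together differed little in their summed share of the reads. Their summed level was 3856 and 5110 CPM in attached co-expressing and Ras cells, and 3955, 4032 and 3891 CPM in circulating co-expressing, Ras and w1118 cells. At least 33 of the 48 reached 10 CPM in each circulating group, and 39 did in each attached group. Cells with at least 420000 reads were then thinned to 420000 reads. The median thinned cell had reads of 30 and 34 of the 48 genes in attached co-expressing and Ras cells. In circulating co-expressing, Ras and w1118 cells it had reads of 26, 26 and 25. Thinning left out 2 and 1 cells of the attached groups and 11, 16 and 14 of the circulating groups, in the same order. These cells are also left out of the later shares at 420000 reads.

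**Figure D1:**
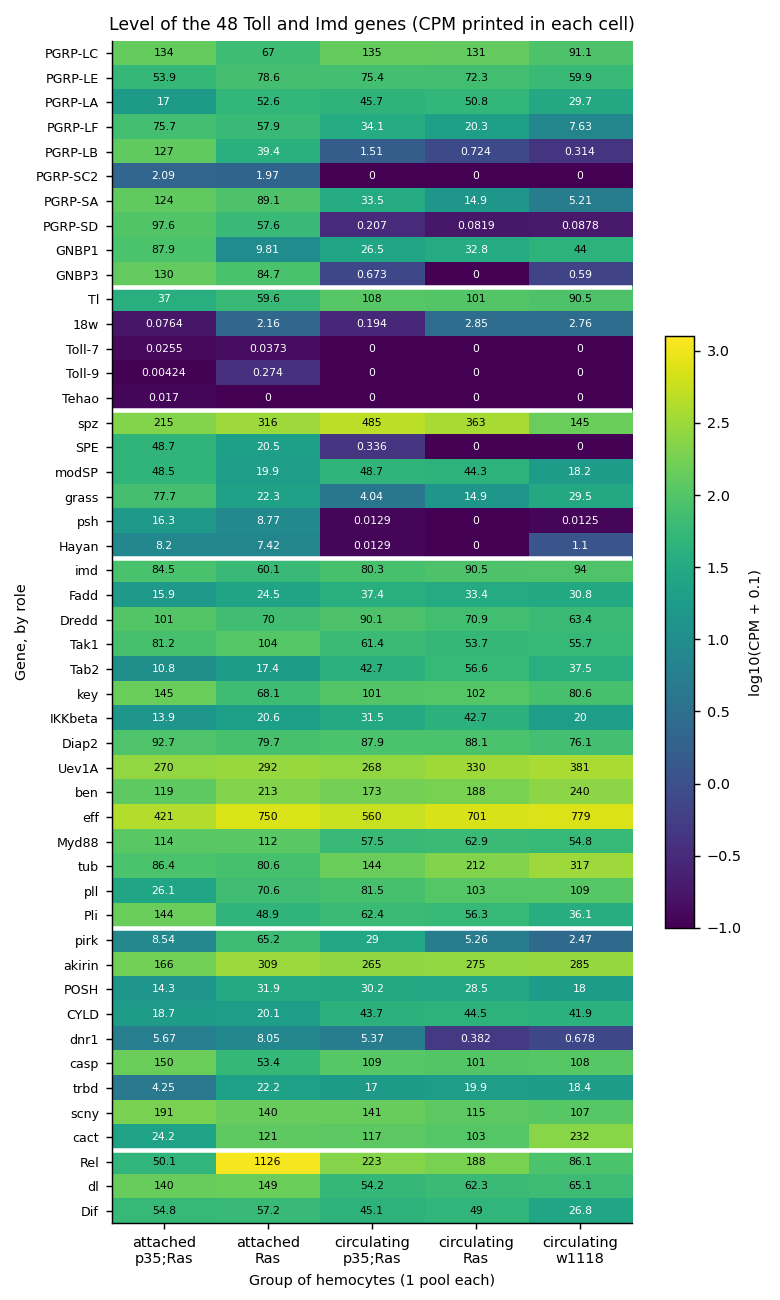
Level of each of the 48 genes in the 5 groups (columns), in CPM, with colour on a log10(CPM + 0.1) scale and white lines between roles. Rel in attached Ras cells, at 1126 CPM, is the highest value, and PGRP-SC2, Toll-7, Toll-9 and Tehao are at 0 in every circulating group.

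The NF-kB factor Rel of the Imd pathway had the widest spread between groups of the 3 factors. Rel (FBgn0014018, chromosome arm 3R, 9044183 to 9047977) was at 50.1 CPM in attached p35;Ras cells [49.2, 51.0], 1126 in attached Ras cells [1123, 1128], 223 in circulating p35;Ras cells [220, 226], 188 in circulating Ras cells [184, 191] and 86.1 in circulating w1118 cells [84.1, 88.2]. In summed reads attached Ras cells thus stood far above every other group, and attached p35;Ras cells below all of them. With every cell weighted alike, attached p35;Ras cells were not below circulating w1118 cells. The log2 ratio of attached p35;Ras over attached Ras was -4.49 [-4.52, -4.46], a 22.5-fold lower level. Single cells showed the same order with overlap: Rel was read in all 19 and all 40 cells, at 1.36 to 677 CPM (median 23.7) in attached p35;Ras cells and 4.94 to 5924 CPM (median 589) in attached Ras cells. Of the 40 attached Ras cells, 20 lay above the highest attached p35;Ras cell, and 1 of the 19 attached p35;Ras cells lay above the median attached Ras cell.

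The difference in Rel did not rest on a single cell. Without the cell with the most reads in each group the log2 ratio was -4.88, with every cell weighted alike it was -3.37, with TMM factors, which rescale the totals by a trimmed mean over genes, it was -4.18, and without the 6 attached p35;Ras and 3 attached Ras cells rich in crystal cell or lamellocyte markers it was -3.97. The median of the 17 wells labelled _C was 276 CPM, above the attached p35;Ras level, and these wells ran from 8.21 to 1626 CPM. By label the median well had 27.8 CPM in the 4 labelled p35Ras_C, 337 in the 5 labelled Ras_C and 364 in the 8 labelled w1118_C. The p35Ras_C median lay below the summed attached p35;Ras level of 50.1 CPM and above the median attached p35;Ras cell of 23.7 CPM. The highest of the 17 wells was exceeded by 0 of 19 attached p35;Ras cells and 12 of 40 attached Ras cells. Fat body transcripts also differed between the attached groups. Their summed level was higher in attached p35;Ras cells (median cell 26086 CPM) than in attached Ras cells (9522 CPM), and across the 40 attached Ras cells the level of Rel ran against it (Spearman rho -0.66), whereas it did not across the 19 attached p35;Ras cells (rho 0.14). With the summed plasmatocyte markers the rho of Rel was 0.51 in attached Ras cells and -0.16 in attached p35;Ras cells. These points share the total of each cell, and the part of fat body RNA in the Rel difference was not tested.

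In the circulation, Rel was higher in both tumor genotypes than in w1118. The log2 ratio was 1.37 [1.33, 1.41] for p35;Ras and 1.12 [1.08, 1.16] for Ras over w1118, and 0.25 [0.22, 0.28] for p35;Ras over Ras. Rel was read in 83.9% of p35;Ras cells (Clopper-Pearson interval 76.2 to 89.9), 84.9% of Ras cells (77.5 to 90.7) and 72.0% of w1118 cells (63.3 to 79.7). The highest w1118 cell was exceeded by 13 circulating p35;Ras cells and 13 circulating Ras cells. Attached Ras cells were in turn above circulating Ras cells, at a log2 ratio of 2.59 [2.56, 2.61], while attached p35;Ras cells were below circulating p35;Ras cells, at -2.15 [-2.19, -2.12], or -0.88 with every cell weighted alike. Location cannot be told apart from the method, since attached cells were taken by hand, amplified for more cycles and read as pairs on another sequencer.

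In summed reads Dif and dl, the factors of the Toll pathway, did not share the difference of Rel between the attached groups. In the circulation the level of Dif in both tumor genotypes was above that in w1118, though by less than 2-fold, whereas that of dl was not. Dif was at 54.8 and 57.2 CPM in attached co-expressing and Ras cells, and at 45.1, 49.0 and 26.8 CPM in circulating co-expressing, Ras and w1118 cells. In summed reads Dif stayed within 2-fold in each comparison between genotypes. In the circulation, however, it was read in more cells of the tumor genotypes. The shares were 59.7% of co-expressing cells (50.5 to 68.4) and 60.3% of Ras cells (51.2 to 68.9), against 34.4% of w1118 cells (26.1 to 43.4). At 420000 reads per cell these shares were 56.6, 61.8 and 36.9%. The gene dl was at 140 and 149 CPM in attached co-expressing and Ras cells, and at 54.2, 62.3 and 65.1 CPM in circulating co-expressing, Ras and w1118 cells. Per kilobase, Rel was the most abundant of the 3 in circulating cells, at 63.8, 53.6 and 24.6 CPM per kilobase in p35;Ras, Ras and w1118 cells, where dl had 8.42, 9.69 and 10.1 and Dif had 7.91, 8.60 and 4.71. In attached p35;Ras cells this order was lost, with 14.3 for Rel, 21.8 for dl and 9.62 for Dif, whereas attached Ras cells had 322, 23.2 and 10.1.

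**Figure D2:**
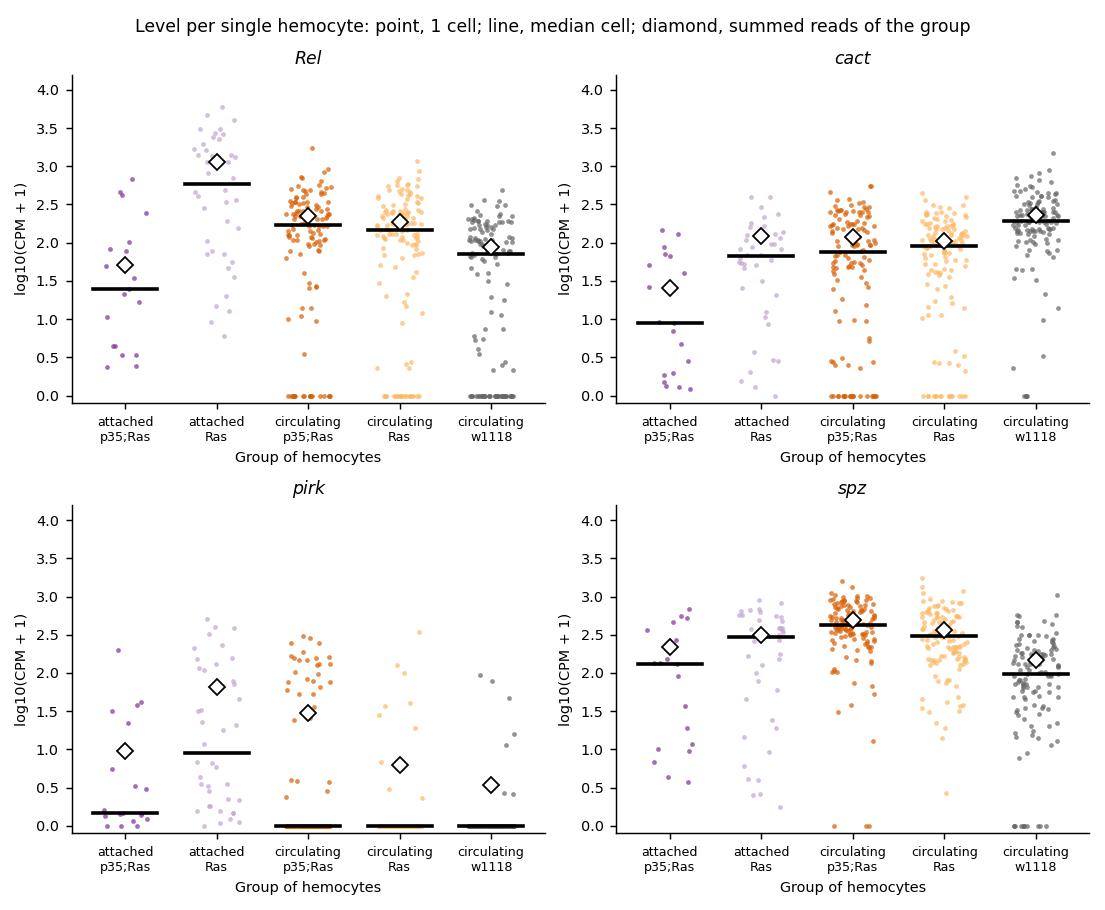
Level of Rel, cact, pirk and spz in each single hemocyte, on a log10(CPM + 1) axis, with groups along the horizontal axis: points are cells, lines the median cell and diamonds the level of the summed reads. The median cell for Rel is at 23.7 CPM in attached p35;Ras cells and 589 CPM in attached Ras cells, and most circulating cells have no pirk read.

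Among the intracellular regulators, the inhibitors cact and pirk had different orders of groups. Cact, the IkB protein that holds dl and Dif in the cytoplasm, was at 24.2 CPM in attached co-expressing cells, 121 in attached Ras cells, 117 in circulating co-expressing cells, 103 in circulating Ras cells and 232 in circulating w1118 cells. Circulating w1118 cells were the highest group and attached p35;Ras cells the lowest. The log2 ratio was -1.17 [-1.21, -1.13] for circulating Ras over w1118, past 2-fold, and -0.99 [-1.03, -0.95] for circulating p35;Ras over w1118, just inside it. In single cells, 20 of 126 circulating Ras cells and 28 of 124 circulating p35;Ras cells lay above the median w1118 cell of 192 CPM. Between the attached groups the log2 ratio of p35;Ras over Ras was -2.32 [-2.36, -2.28], and without the cells rich in crystal cell or lamellocyte markers it was -1.94. The wells labelled _C had a median of 143 CPM of cact, above both attached groups.

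Pirk, which binds PGRP-LC and Imd and dampens the Imd pathway, was nearly silent in w1118. Its level was 8.54 CPM in attached co-expressing cells, 65.2 in attached Ras cells, 29.0 in circulating co-expressing cells, 5.26 in circulating Ras cells and 2.47 in circulating w1118 cells. It was read in 32 of 124 circulating p35;Ras cells (25.8%, 18.4 to 34.4), 10 of 126 Ras cells (7.94%, 3.87 to 14.1) and 7 of 125 w1118 cells (5.60%, 2.28 to 11.2). The pirk reads thus came from a minority of cells, and in circulating p35;Ras cells no single cell gave more than 10.1% of them. The log2 ratio of p35;Ras over Ras was -2.93 [-3.00, -2.87] in attached cells and 2.47 [2.31, 2.63] in circulating cells, of opposite sign. A single attached p35;Ras cell gave 62.7% of that group's pirk reads, and without the top cell of each group the attached ratio was -4.06. The wells labelled _C ran from 0.610 to 536 CPM of pirk, and no attached cell exceeded the highest of them.

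The other regulators differed mainly between attached groups. The deubiquitinase trbd was at 4.25 CPM in attached p35;Ras cells and 22.2 in attached Ras cells, against 17.0, 19.9 and 18.4 in circulating co-expressing, Ras and w1118 cells. Casp (Caspar), an inhibitor of the Imd pathway, was at 150 and 53.4 CPM in attached co-expressing and Ras cells, and at 109, 101 and 108 in circulating co-expressing, Ras and w1118 cells. POSH, a ubiquitin ligase that acts on Tak1, was at 14.3 and 31.9 CPM in attached co-expressing and Ras cells, and at 30.2, 28.5 and 17.97 in circulating co-expressing, Ras and w1118 cells. Of these 3 genes only trbd stayed past 2-fold in all 7 alternatives of the ratio. For casp the log2 ratio of attached p35;Ras over Ras, 1.49, was 0.20 without the cells rich in crystal cell or lamellocyte markers, and for POSH, -1.16, it was -0.44 with every cell weighted alike. In summed reads akirin, scny, CYLD and dnr1 stayed within 2-fold or under the minimum level in every comparison between genotypes. Without the top cell of each group akirin was lower by 2-fold or more in attached co-expressing than in attached Ras cells.

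Of the recognition proteins, PGRP-SA and PGRP-LF had graded levels across the genotypes in the circulation. PGRP-SA, the secreted receptor for Gram-positive peptidoglycan upstream of Toll, was at 124 CPM in attached co-expressing cells, 89.1 in attached Ras cells, 33.5 in circulating co-expressing cells, 14.9 in circulating Ras cells and 5.21 in circulating w1118 cells. This order is that of the summed reads. The median cell had 78.3 CPM in attached p35;Ras and 85.2 CPM in attached Ras cells, the reverse order, and 1 attached p35;Ras cell gave 38.3% of that group's reads. It was read in 46.0% of circulating p35;Ras cells (37.0 to 55.1), 31.7% of Ras cells (23.7 to 40.6) and 16.0% of w1118 cells (10.1 to 23.6). The log2 ratio over w1118 was 2.69 [2.54, 2.84] for p35;Ras and 1.52 [1.35, 1.69] for Ras, and that of p35;Ras over Ras was 1.17 [1.06, 1.27].

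PGRP-LF, a membrane protein that blocks signalling by PGRP-LC, followed the same order. It was at 75.7 CPM in attached co-expressing cells, 57.9 in attached Ras cells, 34.1 in circulating co-expressing cells, 20.3 in circulating Ras cells and 7.63 in circulating w1118 cells. The log2 ratio over w1118 was 2.16 [2.03, 2.29] for p35;Ras and 1.41 [1.27, 1.55] for Ras. Its exons share 602 of 1355 bases (44.4%) with UGP on the opposite strand, and counting without strand cannot tell the 2 genes apart there. In attached p35;Ras cells the level came largely from cells rich in crystal cell or lamellocyte markers. Without them the log2 ratio of attached p35;Ras over attached Ras was -2.48, against 0.39 with them.

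The receptors that start each pathway differed less. PGRP-LC was at 134 and 67.0 CPM in attached co-expressing and Ras cells, and at 135, 131 and 91.1 in circulating co-expressing, Ras and w1118 cells. A single attached p35;Ras cell gave 51.2% of that group's reads, and without the top cell of each group the attached log2 ratio was 0.66 in place of 1.00. PGRP-LE, the intracellular receptor, was at 53.9 and 78.6 CPM in attached co-expressing and Ras cells and at 75.4, 72.3 and 59.9 in circulating co-expressing, Ras and w1118 cells, within 2-fold throughout. PGRP-LA, a membrane member of the family, was at 17.0 and 52.6 CPM in attached co-expressing and Ras cells, and at 45.7, 50.8 and 29.7 in circulating co-expressing, Ras and w1118 cells. The log2 ratio of attached p35;Ras over attached Ras was -1.63, and -0.74 with every cell weighted alike.

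Of the 5 Toll receptors, Tl alone reached 10 CPM. It was at 37.0 and 59.6 CPM in attached co-expressing and Ras cells, and at 108, 101 and 90.5 in circulating co-expressing, Ras and w1118 cells, of which 88.7, 88.1 and 87.2% had a read. Toll-7, Toll-9 and Tehao had 0 reads in each circulating group, which allows up to 0.0504 CPM (exact upper limit), and 18w did not exceed 2.85 CPM in any group.

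Spz, the cytokine that activates Tl, was higher in the circulating tumor genotypes. It was at 215 CPM in attached co-expressing cells, 316 in attached Ras cells, 485 in circulating co-expressing cells, 363 in circulating Ras cells and 145 in circulating w1118 cells. The median cell had 426, 308 and 96.3 CPM in circulating co-expressing, Ras and w1118 cells, and 115 of 124 p35;Ras cells and 108 of 126 Ras cells lay above the w1118 median. The log2 ratio over w1118 was 1.74 [1.71, 1.77] for p35;Ras and 1.32 [1.29, 1.36] for Ras. ModSP, the protease at the head of the cascade, was at 48.5 and 19.9 CPM in attached co-expressing and Ras cells, and at 48.7, 44.3 and 18.2 in circulating co-expressing, Ras and w1118 cells.

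Grass, a protease that acts downstream of modSP, was lower in circulating p35;Ras cells than in the other circulating groups. It was at 77.7 CPM in attached co-expressing cells, 22.3 in attached Ras cells, 4.04 in circulating co-expressing cells, 14.9 in circulating Ras cells and 29.5 in circulating w1118 cells. Reads of grass were in 14 of 124 circulating p35;Ras cells, 32 of 126 Ras cells and 52 of 125 w1118 cells. The log2 ratio of circulating p35;Ras was -2.87 [-3.04, -2.70] over w1118 and -1.88 [-2.07, -1.70] over Ras, and that of Ras over w1118 was -0.99 [-1.09, -0.88]. Of the grass reads of attached p35;Ras cells 78.4% came from 1 cell, and without the top cell of each group the attached log2 ratio was 0.29 in place of 1.80.

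Of the 15 adaptors, kinases and ubiquitin enzymes, 2 passed 2-fold in circulating cells, where over all genes 6.67% were higher in Ras and 5.35% lower in p35;Ras than in w1118 cells. IKKbeta, the catalytic subunit of the IKK complex, was higher in Ras than in w1118 cells (42.7 against 20.0 CPM, log2 ratio 1.09 [1.00, 1.18], 0.98 with TMM factors) and tub was lower in p35;Ras than in w1118 cells. Tub, the adaptor between Myd88 and Pelle, was at 86.4 and 80.6 CPM in attached co-expressing and Ras cells, and at 144, 212 and 317 in circulating co-expressing, Ras and w1118 cells, a log2 ratio of -1.14 [-1.17, -1.11] for p35;Ras over w1118 and -0.58 [-0.61, -0.55] for Ras over w1118. Imd was at 84.5 and 60.1 CPM in attached co-expressing and Ras cells and at 80.3, 90.5 and 94.0 in circulating co-expressing, Ras and w1118 cells, and Myd88 was at 114 and 112 against 57.5, 62.9 and 54.8 CPM. In summed reads these 2 adaptors were within 2-fold in every comparison between genotypes. For Myd88, however, 1 attached co-expressing cell gave 63.6% of that group's reads. Its median cell was at 46.9 CPM in attached co-expressing and 82.1 CPM in attached Ras cells. Without the top cell of each group Myd88 was lower by 2-fold or more in attached co-expressing than in attached Ras cells. In attached co-expressing and Ras cells, the IKK regulatory subunit key was at 145 and 68.1 CPM, the Pelle partner Pli (Pellino) at 144 and 48.9 CPM, and the kinase pll (Pelle) at 26.1 and 70.6 CPM. In circulating co-expressing, Ras and w1118 cells, key was at 101, 102 and 80.6 CPM, Pli at 62.4, 56.3 and 36.1 CPM, and pll at 81.5, 103 and 109 CPM. None of these 3 attached ratios stayed past 2-fold in all 7 alternatives: the weakest log2 ratios were 0.46 for key, 0.64 for Pli and -0.67 for pll.

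Counted over all 48 genes, circulating p35;Ras over w1118 had 36 genes compared, of which 6 were higher (PGRP-LF, PGRP-SA, spz, modSP, pirk and Rel) and 2 lower (grass and tub). Over all genes 12.5% were higher and 5.35% lower in that comparison, and the median log2 ratio was 0.23 for the listed genes and 0.17 for all genes. Circulating Ras over w1118 had 35 compared, 6 higher (PGRP-LF, PGRP-SA, spz, modSP, IKKbeta and Rel) and 1 lower (cact), or 5 and 2 with TMM factors, against 6.67% and 1.82% of all genes, with medians of 0.16 and 0.10. Circulating p35;Ras over Ras had 36 compared, 2 higher (PGRP-SA and pirk) and 1 lower (grass), against 2.47% and 2.3% of all genes. The log2 ratios of all these genes but IKKbeta stayed past 2-fold in each of the 6 alternatives of the circulating ratios. For p35;Ras over Ras, grass was no longer called without the cell with its most reads in each group, since fewer than 25% of the remaining Ras cells then held a read. Both comparisons over w1118 use the same w1118 cells.

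**Figure D3:**
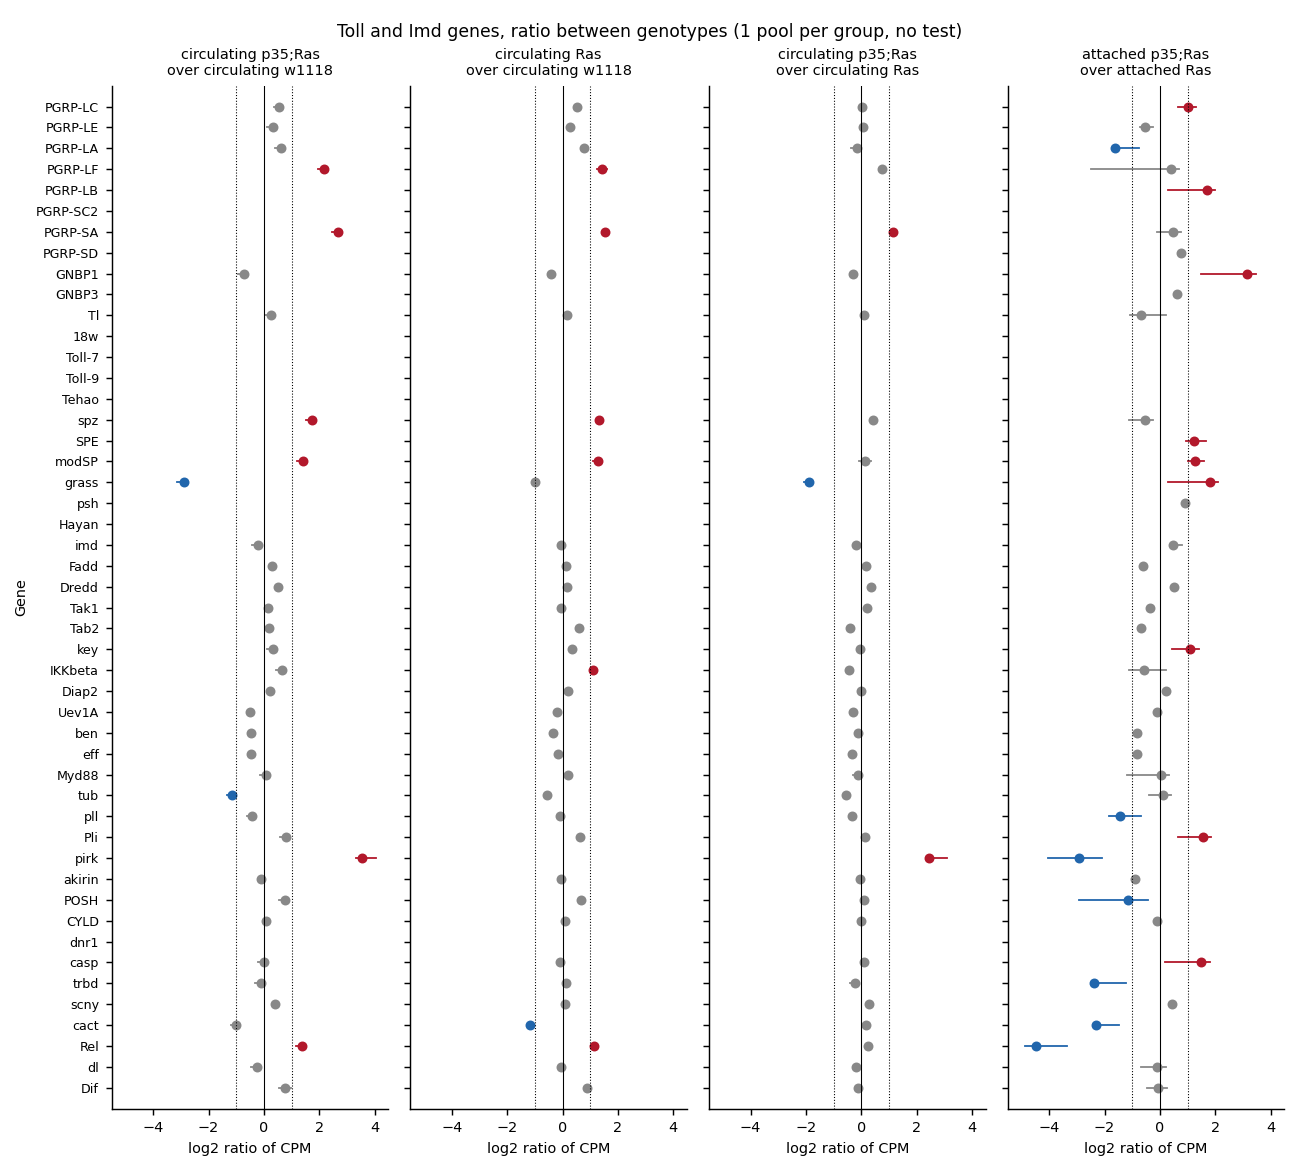
Log2 ratio of CPM for each gene compared (rows), in 4 comparisons between genotypes (panels): red is higher and blue lower by 2-fold or more (dotted lines), grey is within 2-fold, and horizontal lines span the alternatives other than subtraction of the wells labelled _C. Rel is at -4.49 in attached p35;Ras over Ras cells and 1.37 in circulating p35;Ras over w1118 cells, and the lines are longest in the attached comparison.

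Attached p35;Ras over attached Ras had 41 genes compared, of which 9 were higher (PGRP-LC, PGRP-LB, GNBP1, SPE, modSP, grass, key, Pli and casp) and 7 lower (PGRP-LA, pll, pirk, POSH, trbd, cact and Rel). Over all genes 16.5% were higher and 26.5% lower, and the median log2 ratio was -0.06 for the listed genes and -0.22 for all genes. Of these 16 ratios 5 stayed past 2-fold in all 7 alternatives: GNBP1, modSP, pirk, trbd and Rel. For modSP, however, 1 attached p35;Ras cell gave 50.0% of that group's reads. Its median cell was at 1.16 CPM in attached p35;Ras and 1.17 CPM in attached Ras cells. For trbd the median cell was at 0.274 and 0.457 CPM in these groups. Without the top cell of each group 5 genes were higher and 12 lower. GNBP1, which acts with PGRP-SA, was at 87.9 and 9.81 CPM in attached co-expressing and Ras cells and at 26.5, 32.8 and 44.0 in circulating co-expressing, Ras and w1118 cells, but 77.8% of the attached p35;Ras reads came from 1 cell. Without the top cell its attached log2 ratio was 2.06 in place of 3.16.

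Several genes were read almost only in attached cells. Attached p35;Ras over circulating p35;Ras had 41 compared, 11 higher and 13 lower (18 and 4 with TMM factors), against 14.8% and 39.3% of all genes, with medians of 0.01 and -0.64. Attached Ras over circulating Ras had 40 compared, 9 higher and 6 lower (11 and 3 with TMM factors), against 13.2% and 24.8% of all genes, with medians of 0.11 and -0.39. PGRP-SD, a cofactor of bacterial recognition, was at 97.6 and 57.6 CPM in attached co-expressing and Ras cells, and at 0.207, 0.0819 and 0.0878 in circulating co-expressing, Ras and w1118 cells. GNBP3, the sensor of fungal glucans, was at 130 and 84.7 CPM in attached co-expressing and Ras cells, and had 0.673, 0 and 0.590 CPM in circulating co-expressing, Ras and w1118 cells. These genes were read in every attached cell and in at most 8.06% of the cells of a circulating group. At 420000 reads per cell, PGRP-SD was read in 70.6 and 82.1% and GNBP3 in 94.1 and 79.5% of attached co-expressing and Ras cells, against at most 6.19% of the cells of a circulating group.

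The amidase PGRP-LB, which degrades peptidoglycan, was at 127 and 39.4 CPM in attached co-expressing and Ras cells, and at 1.51, 0.724 and 0.314 in circulating co-expressing, Ras and w1118 cells. Of the attached co-expressing cells, 1 gave 45.6% of that group's PGRP-LB reads, and the attached log2 ratio of p35;Ras over Ras, 1.69, was 0.31 without the cells rich in crystal cell or lamellocyte markers. SPE, the enzyme that cleaves Spatzle, was at 48.7 and 20.5 CPM in attached co-expressing and Ras cells, and at 0.336, 0 and 0 in circulating co-expressing, Ras and w1118 cells. Psh (Persephone), a protease that responds to microbial proteases, was at 16.3 and 8.77 CPM and Hayan, a related protease, at 8.20 and 7.42 CPM in attached co-expressing and Ras cells, against at most 0.0129 and 1.10 CPM in the circulating groups. All 6 genes thus had nearly all their level in the libraries that also held fat body and salivary gland transcripts. Spearman's rho with the summed fat body markers, across the 40 attached Ras cells, was 0.71 for GNBP3, 0.60 for PGRP-SD, 0.59 for psh, 0.46 for SPE, 0.22 for Hayan and 0.17 for PGRP-LB, against a median of -0.15 over the 45 genes read in at least 25% of these cells. Across the 19 attached co-expressing cells it was 0.58, 0.49, 0.21, 0.35, 0.24 and 0.14 for the same genes in that order, against a median of -0.18 over 44 genes. With the salivary gland markers the rho of these 6 genes ran from 0.30 to 0.55 in attached Ras cells (median of 45 genes -0.01), and from -0.50 for Hayan to 0.73 for psh in attached co-expressing cells (median of 44 genes 0.07), where SPE was at -0.30. PGRP-SC2, also without a read in circulating cells, was at 2.09 and 1.97 CPM in attached co-expressing and Ras cells. Its rho in these groups was -0.39 and 0.08 with the fat body markers and -0.27 and 0.30 with the gland markers. The points share the total of each cell, and the part of fat body or gland RNA in these levels was not tested.

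**Figure D4:**
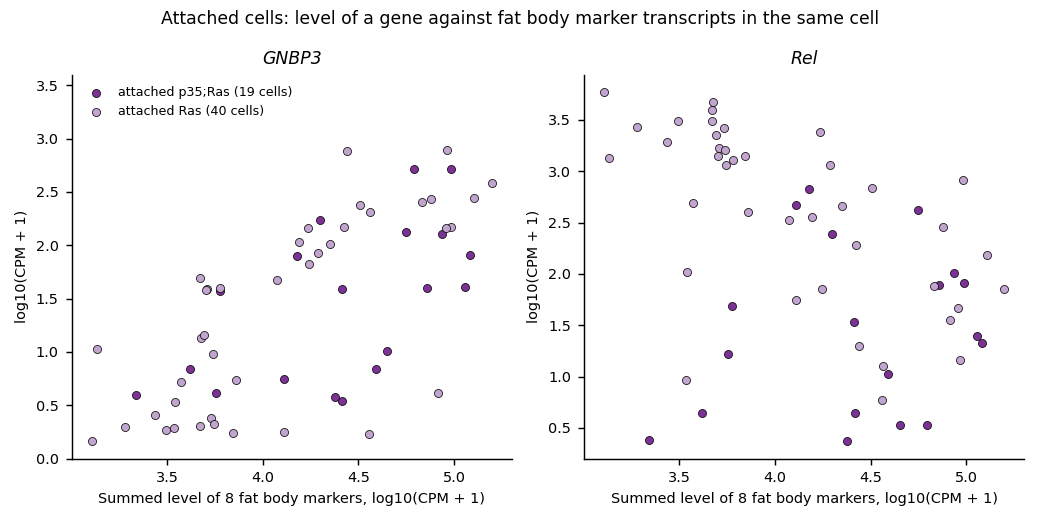
Level of GNBP3 and Rel against the summed level of 8 fat body markers in each attached cell, both axes log10(CPM + 1), for 19 attached p35;Ras and 40 attached Ras cells. GNBP3 is higher in Ras cells with more fat body transcripts (rho 0.71), and Rel is lower in them (rho -0.66).

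The target genes of the pathways were nearly absent from circulating cells. Of 17 antimicrobial peptide and Bomanin genes, none reached the minimum to be compared in the 3 circulating comparisons. The highest was Drs (Drosomycin), at 11.1, 0.328 and 0.125 CPM in circulating co-expressing, Ras and w1118 cells, and 9 of the 17 had no read in any circulating group. In attached p35;Ras over attached Ras cells, 9 were compared, of which 1 was higher (BomS3) and 5 lower (DptA, AttB, AttC, CecC and Mtk), with a median log2 ratio of -1.15, where over all genes 16.5% were higher and 26.5% lower and the median was -0.22. DptA (Diptericin A), a target of Rel, was at 29.2 and 106 CPM in attached co-expressing and Ras cells, and Drs at 1135 and 1025 CPM. DptB (Diptericin B) did not share the difference of DptA, at 75.1 and 67.7 CPM in the same groups.

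Of 32 other genes of the pathways, 30 were matched. In circulating cells 15 were compared over w1118, and the same 2 passed 2-fold in each tumor genotype, 1 higher and 1 lower, where over all genes 12.5% were higher and 5.35% lower in p35;Ras and 6.67% and 1.82% in Ras. Traf4, an adaptor of the TRAF family, was at 74.3, 25.4 and 8.92 CPM and Tollo, a Toll family receptor, at 3.99, 7.54 and 17.97 CPM in circulating co-expressing, Ras and w1118 cells. In attached p35;Ras over attached Ras cells 18 were compared, with 3 higher (Usp2, RYBP and slmb) and 7 lower (PGRP-SB2, Tollo, wek, Gprk2, mop, Hrs and Cul1), and a median log2 ratio of -0.71, against the same 16.5%, 26.5% and -0.22 over all genes.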

How the data were processed

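Per the file headers and the methods, the authors aligned the reads with STAR 2.7.2 to release 6.37 of the fly genome (dm6) and counted them per gene with featureCounts 2.0.0 at default settings, without strand. The deposited values are raw read counts per gene and cell, with exon lengths in bases. Cells were kept if mitochondrial genes took 10% of reads or less and 200 or more genes had a read, 1 of 2 filters the study states. The other, 5% and at most 4000 genes, was not applied, since 35 of 375 circulating and 0 of 59 attached cells kept here fall within it, whereas the deposited annotation gives a genotype to 380 and 61. In the attached set the mates of a pair were counted as separate reads.

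Reads of each gene were summed per genotype and location and divided by the group total (CPM). Intervals were exact Poisson for levels, exact conditional binomial for ratios and Clopper-Pearson for shares of cells. A group with 0 reads was set to 3 reads for a ratio. With 1 pool per group no test was run. The ratio script was tested on simulated data. Doublets were not called. The 17 wells labelled _C, and 4 circulating and 1 attached wells without a genotype, entered no group.

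Values in all groups were printed for each gene past 2-fold between genotypes, and for Rel, dl, Dif, Tl, PGRP-LC, PGRP-LE, spz, imd, Myd88, cact and pirk. The genes, lists and rules were chosen with earlier results of these data known. Alternatives were a mean over cells, TMM factors (edgeR 4.0.16), totals without mitochondrial and ribosomal RNA genes, no cell filter, leaving out the top cell of each gene, leaving out cells with more than 5000 CPM of PPO1 plus PPO2 or 1000 CPM of atilla, a minimum of 50 CPM, subtraction of the median well labelled _C, and thinning to 420000 reads. Python 3.11.15, numpy 2.4.6 and scipy 1.17.1 were used.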

Additional observations from a re-analysis of the deposited data

Results flagged for a closer look

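For 4 of the 48 genes the ratio of p35;Ras over Ras had opposite signs in attached and circulating cells, with log2 ratios at least 3 apart. The log2 ratio was -4.49 in attached and 0.25 in circulating cells for Rel, -2.93 in attached and 2.47 in circulating cells for pirk, 1.80 in attached and -1.88 in circulating cells for grass, and 3.16 in attached and -0.31 in circulating cells for GNBP1. The difference between the locations was not tested, since each group is 1 pool. For grass and GNBP1 1 attached p35;Ras cell gave 78.4% and 77.8% of the group's reads, and for pirk 62.7%, whereas the top cell gave 34.2% for Rel.

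The 17 wells labelled _C entered no group, and 4 of the genes had a median level in them above both attached groups: Uev1A at 372 CPM, akirin at 371 CPM, cact at 143 CPM and imd at 87.3 CPM. In attached p35;Ras and Ras cells Uev1A was at 270 and 292 CPM, akirin at 166 and 309 CPM, cact at 24.2 and 121 CPM, and imd at 84.5 and 60.1 CPM.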

How the results depend on the processing

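Of 90 counts of higher or lower genes under the alternatives, 69 stayed within 1.5 times the value reported and 21 did not. At a minimum of 50 CPM the counts higher over w1118 were 2 for circulating Ras and 2 for circulating p35;Ras, with 1 lower in circulating p35;Ras over w1118. Circulating p35;Ras over Ras had 0 higher and 0 lower, attached over circulating Ras had 2 lower, and attached over circulating p35;Ras had 5 lower. With TMM factors circulating Ras over w1118 had 2 lower, attached over circulating Ras 3 lower, and attached over circulating p35;Ras 18 higher and 4 lower. Without the top cell of each gene, circulating Ras over w1118 had 2 lower, circulating p35;Ras over Ras 0 lower, attached p35;Ras over Ras 5 higher and 12 lower, and attached over circulating p35;Ras 6 higher. Without the cells rich in crystal cell or lamellocyte markers, attached p35;Ras over Ras had 5 higher and attached over circulating p35;Ras 6 lower. With every cell weighted alike, attached p35;Ras over Ras had 4 lower and attached over circulating p35;Ras 8 lower. With the median well labelled _C subtracted, attached over circulating Ras had 14 lower, and cact had no ratio between the attached groups, since both fell to 0. Called ratios changed sign in 2 cases, both of attached over circulating p35;Ras: PGRP-LF was -1.69 without the cells rich in markers and GNBP1 -0.14 without the top cell. The causes were not tested.

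TMM factors moved the median log2 ratio of all genes from 0.10 to -0.01 in circulating Ras over w1118, from 0.17 to -0.04 in circulating p35;Ras over w1118, from 0.05 to -0.05 in circulating p35;Ras over Ras, from -0.22 to 0.08 in attached p35;Ras over Ras, from -0.39 to -0.03 in attached over circulating Ras, and from -0.64 to 0.13 in attached over circulating p35;Ras. No paired analysis was possible because each group is 1 pool with no replicate. A gene at 0 reads has an exact upper limit of 0.0463 to 0.0504 CPM in the circulating groups and 0.00688 CPM in attached Ras cells, so lower levels were not detectable.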

Other observations

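The wells labelled _C carry 3 annotation labels, and their levels are given as lowest, median and highest well. For Rel they were 8.21, 27.8 and 276 CPM in the 4 wells labelled p35Ras_C, 13.4, 337 and 1626 CPM in the 5 labelled Ras_C, and 123, 364 and 933 CPM in the 8 labelled w1118_C. For spz they were 413, 827 and 1892 CPM in the wells labelled p35Ras_C, 11.9, 20.2 and 291 CPM in those labelled Ras_C, and 0.363, 31.0 and 337 CPM in those labelled w1118_C. For cact they were 4.45, 189 and 347 CPM in the wells labelled p35Ras_C, 6.70, 143 and 326 CPM in those labelled Ras_C, and 0.712, 28.1 and 345 CPM in those labelled w1118_C. The ranges of the 3 labels overlapped for Rel and for cact, and for spz the wells labelled p35Ras_C lay above the other labels.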
